A study of Arabidopsis thaliana with 30 samples.

Results

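The genes described here are 10 Arabidopsis thaliana genes of the evening arm of the circadian clock, chosen by locus: TOC1 (AT5G61380), PRR3 (AT5G60100), PRR5 (AT5G24470), GI (AT1G22770), LUX (AT3G46640), ELF3 (AT2G25930), ELF4 (AT2G40080), COR27 (AT5G42900), COR28 (AT4G33980) and JMJD5 (AT3G20810). A gene was counted as measured where a probe set of the array named no other gene, which left 9 of the 10, out of 21227 genes measured in all. LUX was left out because its probe set also names BOA, its close paralog. Mean level was to decide between several probe sets of a gene, but each of the 9 genes had 1 probe set, so level made no choice between probe sets. The 10 genes themselves were proposed with earlier results of these data known, so their differences are descriptions of single genes. All 9 passed the filter on low levels in both tissues.

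The study profiled shoots and roots of 10-day-old seedlings on Affymetrix arrays to look for target genes of AtNIGT1.2, a GARP-type transcription factor of the NIGT1 subfamily. There were 5 groups per tissue and 3 arrays per group. All seedlings were first grown on half-strength Murashige-Skoog agar with 1% sucrose at 22 °C, in cycles of 16 h light and 8 h dark. Wild-type seedlings (Col-0) aged 7 days were put on plates with 5 mM NH4NO3 (nitrogen-sufficient) or without a nitrogen source (nitrogen-starved) for 3 days. The AtNIGT1.2 overexpressor was transferred at the same age and starved for 3 days, so no overexpressor with nitrogen is among these groups. Seedlings of a line with estradiol-inducible AtNIGT1.2-VP were transferred when 9 days old and kept for 24 h on 5 mM NH4NO3. The plates held estradiol (10 mM, as labelled) or none (mock). No wild type with estradiol is among these groups, so estradiol itself and induction of AtNIGT1.2-VP cannot be told apart. The labels do not spell out "VP", name the promoter behind the overexpressor, say how many lines or seedlings were sampled, or give the time of day of harvest. The replicates are labelled biological.

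The plant clock is a set of genes that repress each other in turn over the day. The MYB factors CCA1 and LHY peak near dawn and repress evening genes through the evening element in their promoters, while TOC1 and the other pseudo-response regulators repress CCA1 and LHY. After dusk ELF3, ELF4 and LUX form the evening complex, which represses daytime genes, and as CCA1 and LHY fall the evening genes rise. The transcript level of a clock gene in one harvest therefore depends on the phase at which the tissue was taken as well as on the rhythm's height.

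Levels below are log2 units as deposited, and a difference of 1 is a factor of 2. Values after ± are standard errors from the limma fit, except where SD is named. A gene was called higher or lower where the limma adjusted p lay under 0.05, with Benjamini-Hochberg adjustment over the 15922 probe sets tested in a tissue. Shares of all probe sets are given at that threshold, and none was counted at an unadjusted p. The array medians spanned 6.61 to 6.76 (shoots) and 6.92 to 7.08 (roots). The targeted transcript, AtNIGT1.2, had a mean of 13.88 in overexpressor shoots against 7.26 in starved wild type, and 12.50 with estradiol against 9.56 with mock. In roots these means were 13.67 against 7.81 and 13.33 against 9.21. The 4 shoot markers with a probe set of their own (LHCA1, PSBO1, LHCB3 and RCA, photosynthesis genes) lay between percentiles 99.8 and 100.0 of mean level in the shoot table and between 64.2 and 73.0 in the root table. No marker was near the bottom of the root scale, and their summed level (log2) in roots differed more between groups than between arrays of a group. It ran from 11.51 to 11.57 in sufficient wild type, 10.04 to 10.16 in starved wild type, 8.36 to 8.45 in the overexpressor, 10.64 to 10.88 with mock and 10.15 to 10.30 with estradiol. All 4 were called lower in roots with starvation, with overexpression and in the mock-treated VP line, and 3 of 4 with estradiol. In shoots the same sum ran from 14.71 to 14.89 in the overexpressor and from 15.21 to 15.54 in the other 4 groups. The 7 root markers (PYK10, COBL9, EXPA7, CASP1, SHR, SCR and IRT1) summed to between 13.67 and 13.98 in roots and between 10.54 and 12.23 in shoots, the latter highest with estradiol. PYK10 alone had root means of 13.02 to 13.56, so this sum mostly follows 1 marker. Of the 7, 3 were called higher and 2 lower in roots with starvation, and 2 and 2 with overexpression. With estradiol 0 were higher and 4 lower, and in the mock-treated line 1 and 0. The part of these levels in the results on clock genes was not tested. In such bulk tissue, fewer cells of a type and less RNA per cell cannot be told apart.

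For the 9 genes, the sufficient wild-type shoot arrays differed among themselves more than the arrays of other shoot groups, although over all probe sets they correlated with r of 0.994 to 0.998, as in the other shoot groups. Replicate 1 was the highest of the 3 for 9 of the 9 genes and replicate 2 the lowest for 8. Similar orders held in starved wild-type shoots (replicate 3 highest for 7, replicate 2 lowest for 7) and sufficient wild-type roots (7 and 6). The median SD of the 9 genes was 0.274 in sufficient wild-type shoots, against 0.088 to 0.149 in the other shoot groups. Both shoot comparisons with sufficient wild type rest on these arrays, and the calls that depend on 1 of them are given with each gene. The fit took 1 spread per gene over the 5 groups, so these arrays also enter the standard errors of the other shoot comparisons.

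In the shoots of the overexpressor, evening clock transcripts were high. Of the 9 genes, 7 were called higher and 0 lower than in starved wild type, where 30.6% of all tested probe sets were called higher, 20.7% lower and 51.3% in either direction. JMJD5 rose 7.51-fold, COR27 4.44-fold and PRR3 2.58-fold, while PRR5 and GI did not pass the test. At an unadjusted p under 0.05 limma likewise gave 7 higher and 0 lower, and the authors' deposited Benjamini-Hochberg values gave 4 higher. The median of the 9 differences was 0.78, against 0.06 over all probe sets. In overexpressor roots 7 of the 9 were again called higher and 0 lower, with 21.4% and 16.7% of all probe sets (38.1% in either direction), and the median was 0.45 against 0.03. At an unadjusted p under 0.05 there were 8 higher and 0 lower, and by the authors' deposited Benjamini-Hochberg values 4 higher. The share of all probe sets at an unadjusted p was not counted. COR27 rose 2.39-fold and JMJD5 2.11-fold there. The overexpressor and wild type also differ in line, and the time of day of harvest is not given. Effects of AtNIGT1.2 level, line and harvest time cannot be told apart in this comparison.

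In wild type deprived of nitrogen, evening genes were low in roots. There 8 of the 9 genes were called lower and 1, GI, higher, where 21.8% of all probe sets were lower, 33.1% higher and 54.8% called in either direction. COR28 had the largest of these drops, 2.54-fold, followed by TOC1 at 1.86-fold and ELF4 at 1.76-fold, and the median difference was -0.68 against 0.06 over all probe sets. In shoots 4 genes were called higher (ELF4, PRR3, GI and JMJD5) and 0 lower, with 27.8% and 26.3% of all probe sets, and an unadjusted p under 0.05 gave the same counts. The 4 of 9 called in starved shoots lay below the 54.1% of all probe sets called in either direction. The shoot median was 0.14 against 0.0041 over all probe sets. Without sufficient replicate 2, 2 genes were called lower in shoots. The authors' deposited Benjamini-Hochberg values gave 4 lower and 0 higher in roots, with GI at 0.0857, and 1 higher, ELF4, in shoots. Tissues were deposited as separate tables and no test was made between them.

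With estradiol the set divided in the AtNIGT1.2-VP line. In shoots 4 genes were called higher (COR27, JMJD5, TOC1 and ELF3) and 3 lower (ELF4, PRR5 and GI), with 23.8% and 25.5% of all probe sets (49.3% in either direction). In roots 2 were called higher (PRR3 and JMJD5) and 5 lower (GI, PRR5, ELF4, ELF3 and TOC1), with 15.6% and 28.3% of all probe sets (43.9% in either direction). GI fell 3.18-fold in roots and PRR5 2.00-fold, the largest drops of the set in this comparison. Median differences were 0.25 in shoots and -0.26 in roots, against -0.03 and -0.07 over all probe sets. The count of 3 lower in shoots fell to 0 without estradiol replicate 2 and to 1 without estradiol replicate 3, mock replicate 1 or mock replicate 3. The count of 2 higher in roots fell to 1 without any 1 of the 6 arrays. The authors' deposited Benjamini-Hochberg values gave 1 higher, COR27, and 0 lower in shoots. In roots they gave 2 higher, PRR3 (0.0445) and JMJD5 (0.0227), and 3 lower.

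The VP line without estradiol already differed from wild type on the same nitrogen. In shoots 6 of the 9 genes were called higher in the mock-treated line and 0 lower, with 17.7% and 15.8% of all probe sets (33.4% in either direction), and JMJD5 was 5.99-fold higher. The median was 0.80 against 0.02. In roots 5 were called higher and 0 lower, with 12.1% and 6.10% of all probe sets (18.2% in either direction), and the median was 0.26 against 0.05. The root genes without a call were PRR5 (0.05), GI (0.07), ELF3 (0.07) and COR28 (0.04). At an unadjusted p under 0.05 limma gave 8 higher and 0 lower in shoots and 5 higher and 0 lower in roots. The shares above are at the adjusted p, so they are no background for those counts. The root count was 3 with arrays centred on their medians, and 3 without mock replicate 1 or sufficient replicate 2. These groups differ in line, in age at transfer and in time on the last plates (24 h against 3 days), which cannot be told apart. AtNIGT1.2 itself had a mean of 9.56 in mock shoots and 9.77 in sufficient wild type, and 9.21 and 8.93 in roots.

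**Figure D1:**
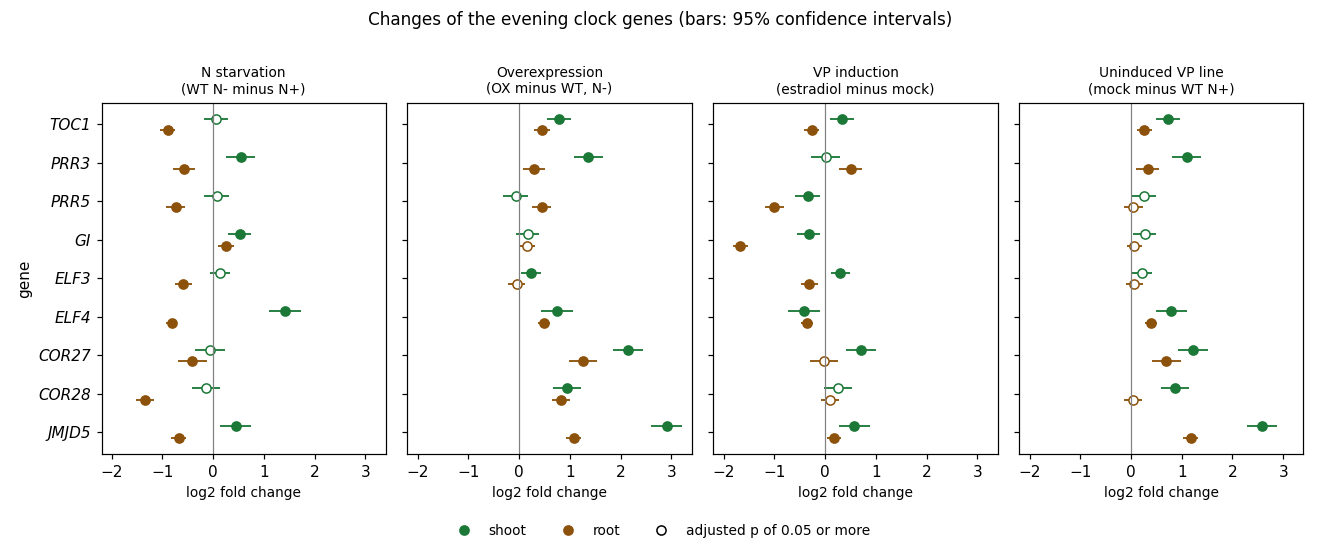
Log2 fold change (x axis) of the 9 measured evening clock genes (y axis) in nitrogen starvation, AtNIGT1.2 overexpression, AtNIGT1.2-VP induction and the uninduced VP line, in shoots (green) and roots (brown), with 95% confidence intervals; open points did not pass an adjusted p of 0.05. The points for overexpression and the uninduced line lie mostly right of 0 in both tissues, and the root points for starvation lie left of 0 except GI.

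Among the pseudo-response regulators, TOC1 represses CCA1 and LHY in the evening. Its 3 sufficient wild-type shoot arrays read 9.16, 8.55 and 8.79 and the starved ones 8.77, 8.90 and 8.98. The overexpressor read 9.73, 9.71 and 9.56, above every wild-type array. Mock-treated VP shoots read 9.56 on all 3 arrays, and those with estradiol 9.96, 9.83 and 9.89. TOC1 thus stood highest with estradiol, the overexpressor and mock groups overlapped below it, and the wild-type groups overlapped at the bottom. TOC1 was 0.78 ± 0.11 higher in the overexpressor (adjusted p = 2.5e-05) and 0.72 ± 0.11 higher in the mock-treated line than in sufficient wild type (adjusted p = 0.000178). Estradiol added 0.33 ± 0.11 (adjusted p = 0.0202), a call lost without estradiol replicate 1 (adjusted p = 0.0623). Starvation gave 0.05 ± 0.11 with no call.

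TOC1 in roots was lowest in starved wild type. Sufficient wild type read 9.75, 9.66 and 9.97 and starved wild type 8.88, 8.86 and 8.94, with no overlap. The overexpressor lay between them at 9.38, 9.44 and 9.21. In the VP line the arrays read 10.13, 10.05 and 9.99 with mock and 9.75, 9.85 and 9.77 with estradiol, the latter within the range of sufficient wild type. TOC1 fell by 0.90 ± 0.07 with starvation (adjusted p = 1.19e-09), rose by 0.45 ± 0.07 with overexpression (adjusted p = 4.53e-05) and fell by 0.26 ± 0.07 with estradiol (adjusted p = 0.00539). It was 0.26 ± 0.07 higher in the mock-treated line (adjusted p = 0.0162), a call lost without mock replicate 1 (adjusted p = 0.0880) or sufficient wild-type replicate 2 (adjusted p = 0.0979).

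PRR3 binds TOC1 protein and shields it from the F-box protein ZTL. In shoots it read 7.40, 6.90 and 7.34 in sufficient wild type, 7.72, 7.62 and 7.91 in starved wild type and 8.94, 9.21 and 9.21 in the overexpressor. The 3 groups formed separate steps. Starvation raised PRR3 by 0.54 ± 0.14 (adjusted p = 0.00292), and it was 1.37 ± 0.14 higher with overexpression (adjusted p = 5.48e-07). Mock arrays of the VP line read 8.53, 8.13 and 8.27 and estradiol arrays 8.17, 8.37 and 8.42, which overlap. The difference with estradiol was 0.01 (95% interval -0.27 to 0.30), whereas the mock-treated line was 1.10 ± 0.14 above sufficient wild type (adjusted p = 2.7e-05).

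PRR3 in roots read 7.09, 6.75 and 7.22 with nitrogen and 6.43, 6.46 and 6.44 without it. The overexpressor read 6.52, 6.86 and 6.85, and the VP line 7.31, 7.30 and 7.44 with mock and 7.85, 7.83 and 7.87 with estradiol. Here starved wild type was lowest and the induced VP line highest, without overlap with their neighbours. PRR3 fell by 0.58 ± 0.11 with starvation (adjusted p = 8.91e-05) and rose by 0.50 ± 0.11 with estradiol (adjusted p = 0.00053). It was 0.30 ± 0.11 higher with overexpression (adjusted p = 0.0291), a call lost without overexpressor replicate 2 or 3 or any 1 of the starved wild-type arrays (adjusted p from 0.0503 to 0.129). It was 0.33 ± 0.11 higher in the mock-treated line (adjusted p = 0.0358), and 0.19 without sufficient wild-type replicate 2 (adjusted p = 0.212). That call was also lost without any 1 of the mock arrays (adjusted p from 0.0564 to 0.120).

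PRR5 represses CCA1 and LHY and helps TOC1 into the nucleus. Its 5 shoot means lay within 0.345 of each other, the narrowest range of the 9 genes in shoots. Sufficient wild type read 9.26, 8.78 and 8.90, starved wild type 9.10, 8.92 and 9.14 and the overexpressor 9.14, 8.89 and 8.92. All 3 groups overlapped, and overexpression gave -0.07 (95% interval -0.32 to 0.18). With estradiol PRR5 read 9.08, 8.85 and 8.73 against 9.32, 9.15 and 9.22 with mock, a difference of -0.35 ± 0.12 (adjusted p = 0.0233) that lost its call without estradiol replicate 2 or 3 or mock replicate 1 or 3 (adjusted p from 0.0505 to 0.107). The mock-treated line differed from sufficient wild type by 0.25 ± 0.12 with no call, and by 0.39 with a call without sufficient replicate 1. In roots the order was wider. PRR5 read 8.56, 8.47 and 8.47 with nitrogen, 7.67, 7.89 and 7.74 without it, and 8.38, 8.14 and 8.13 in the starved overexpressor. It read 8.70, 8.61 and 8.33 with mock and 7.51, 7.56 and 7.56 with estradiol. Neighbouring groups in the order of levels were apart, except sufficient wild type and mock. PRR5 fell by 0.73 ± 0.09 with starvation (adjusted p = 6.51e-07), rose by 0.45 ± 0.09 with overexpression (adjusted p = 0.000475) and fell by 1.00 ± 0.09 with estradiol (adjusted p = 7.49e-09).

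**Figure D2:**
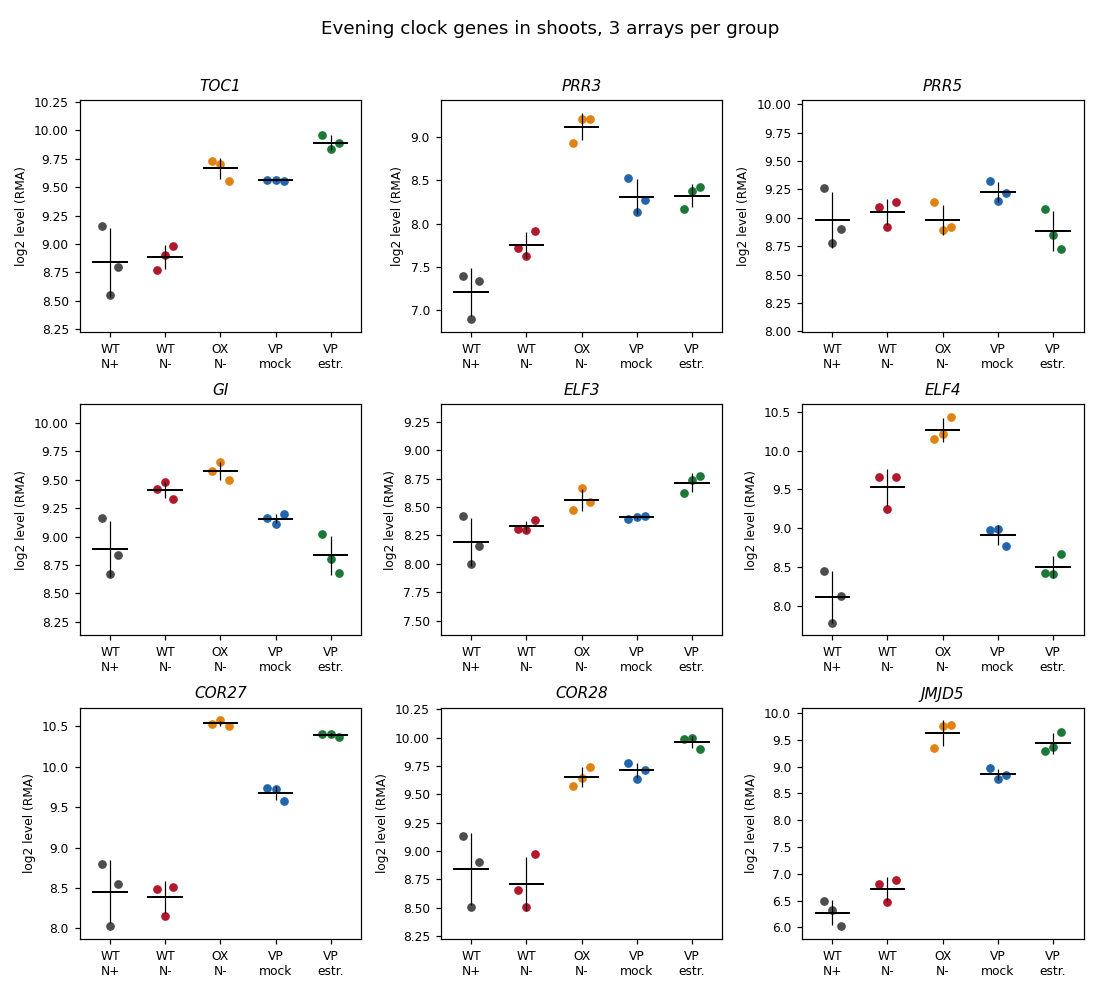
Log2 level (y axis) of the 9 measured evening clock genes in each shoot array, by group (x axis: wild type with and without nitrogen, starved overexpressor, VP line with mock and with estradiol); points are arrays, horizontal lines the mean and vertical lines 1 SD of 3 arrays. JMJD5, COR27 and PRR3 stand above both wild-type groups in the overexpressor and in the VP line, and PRR5 varies least.

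The evening complex was measured through ELF3, its scaffold, and ELF4, a small partner of ELF3. ELF4 had the largest response to starvation in shoots of the 9 genes. It read 8.45, 7.78 and 8.12 with nitrogen and 9.66, 9.25 and 9.66 without it, and 10.14, 10.22 and 10.44 in the overexpressor. None of these groups overlapped. ELF4 rose by 1.41 ± 0.15 with starvation (2.66-fold, adjusted p = 8.41e-07) and by a further 0.74 ± 0.15 with overexpression (adjusted p = 0.000553). Mock arrays of the VP line read 8.98, 8.99 and 8.77, which was 0.80 ± 0.15 above sufficient wild type (adjusted p = 0.000766). Estradiol arrays read 8.43, 8.40 and 8.66, a difference of -0.41 ± 0.15 (adjusted p = 0.0289), and this call was lost without estradiol replicate 1 or 2 or mock replicate 1 or 2 (adjusted p from 0.0785 to 0.0954).

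In roots ELF4 went down with starvation. It read 9.85, 9.91 and 10.02 with nitrogen and 9.05, 9.11 and 9.15 without it. The overexpressor read 9.68, 9.53 and 9.56. The VP line read 10.31, 10.33 and 10.32 with mock, the highest group, and 10.00, 9.95 and 9.95 with estradiol, within the range of sufficient wild type. ELF4 fell by 0.82 ± 0.06 with starvation (adjusted p = 7.45e-11), rose by 0.48 ± 0.06 with overexpression (adjusted p = 5.6e-07) and fell by 0.35 ± 0.06 with estradiol (adjusted p = 2.35e-05). It was 0.39 ± 0.06 higher with mock than in sufficient wild type (adjusted p = 4.91e-05).

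ELF3 moved little in shoots, where the 15 arrays lay between 8.00 and 8.78. The overexpressor read 8.47, 8.67 and 8.55 against 8.31, 8.30 and 8.38 in starved wild type, 0.23 ± 0.09 higher (adjusted p = 0.0453), and the call was lost without overexpressor replicate 2 or 3 or any 1 of the starved wild-type arrays (adjusted p from 0.0577 to 0.165). That call was also lost with no filter, no intensity trend, median centring or quantile normalization (limma adjusted p from 0.0512 to 0.0774). Estradiol arrays read 8.62, 8.74 and 8.78 against 8.40, 8.42 and 8.42 with mock, 0.30 ± 0.09 higher (adjusted p = 0.0122). Starvation gave 0.14 ± 0.09 with no call, and 0.25 with a call without sufficient replicate 1. The mock-treated line gave 0.22 ± 0.09 with no call, and 0.33 with a call without that array. In roots ELF3 read 8.65, 8.75 and 8.78 with nitrogen, 7.91, 8.19 and 8.32 without it and 8.12, 8.09 and 8.08 in the overexpressor. The starved groups overlapped each other and lay below the sufficient one. ELF3 fell by 0.59 ± 0.08 with starvation (adjusted p = 3.11e-06), and overexpression gave -0.04 (95% interval -0.21 to 0.12). Estradiol arrays read 8.51, 8.44 and 8.50 against 8.87, 8.74 and 8.76 with mock, a difference of -0.31 ± 0.08 (adjusted p = 0.00379).

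The probe set that LUX, the DNA-binding member of the complex, shares with BOA cannot be assigned to either gene. With overexpression it was 0.78 ± 0.07 higher in shoots (adjusted p = 2.87e-07) and 0.54 ± 0.07 higher in roots (adjusted p = 5.78e-06). With starvation it differed by -0.34 in shoots and -0.41 in roots, both called lower. In the mock-treated line it was 0.51 ± 0.07 higher in shoots (adjusted p = 8.91e-05) and 0.37 ± 0.07 higher in roots (adjusted p = 0.00143). Estradiol gave -0.01 in shoots with no call and -0.19 ± 0.07 in roots (adjusted p = 0.0419). It was not counted among the 9 genes.

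GI, a large protein that stabilises ZTL and acts with FKF1 in day-length timing of flowering, responded to starvation in the same direction in both tissues. Shoot arrays read 9.16, 8.67 and 8.84 with nitrogen and 9.41, 9.48 and 9.33 without it. The overexpressor read 9.58, 9.66 and 9.50, above every starved wild-type array, but the difference of 0.17 ± 0.11 was not called (adjusted p = 0.204). Starvation raised GI by 0.52 ± 0.11 (adjusted p = 0.000639). Mock arrays of the VP line read 9.16, 9.11 and 9.20 and estradiol arrays 9.02, 8.80 and 8.68, a difference of -0.32 ± 0.11 (adjusted p = 0.0197) that lost its call without estradiol replicate 2 or 3 or mock replicate 3 (adjusted p from 0.0585 to 0.0976). The mock-treated line gave 0.27 ± 0.11 over sufficient wild type with no call, and 0.40 with a call without sufficient replicate 1.

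GI in roots was high in every group except the induced VP line. It read 9.49, 9.41 and 9.33 with nitrogen, 9.67, 9.69 and 9.62 without it and 9.84, 9.87 and 9.77 in the overexpressor. Mock arrays read 9.56, 9.54 and 9.33 and estradiol arrays 7.79, 7.95 and 7.68. The estradiol arrays thus lay more than 1 unit below all 12 others. Starvation raised GI by 0.25 ± 0.07 (adjusted p = 0.00505), and estradiol lowered it, with a difference of -1.67 ± 0.07 (adjusted p = 4.04e-14). With overexpression GI differed by 0.17 ± 0.07 without a call (adjusted p = 0.0760).

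COR27 and COR28 are paralogs induced by cold and blue light that repress clock genes such as PRR5 and TOC1. COR27 in shoots read 8.79, 8.02 and 8.55 with nitrogen and 8.49, 8.16 and 8.51 without it, which overlap. The overexpressor read 10.53, 10.58 and 10.51. The VP line read 9.73, 9.72 and 9.57 with mock and 10.41, 10.41 and 10.36 with estradiol. Both transgenic lines thus lay above all wild-type arrays. COR27 was 2.15 ± 0.14 higher with overexpression (adjusted p = 4.06e-09), 1.22 ± 0.14 higher with mock than in sufficient wild type (adjusted p = 1.35e-05) and a further 0.72 ± 0.14 higher with estradiol (adjusted p = 0.000518). Starvation gave -0.07 with no call, and -0.28 with a call without sufficient replicate 2. In roots COR27 read 5.92, 5.73 and 6.48 with nitrogen, 5.59, 5.56 and 5.75 without it and 7.09, 6.84 and 6.75 in the overexpressor. Sufficient replicate 3 stood apart from the other two. Starvation gave -0.41 ± 0.13 (adjusted p = 0.0145) although the groups overlapped, and -0.19 without that array (adjusted p = 0.149). COR27 was 1.26 ± 0.13 higher with overexpression (adjusted p = 2.03e-07). With mock it read 6.80, 6.68 and 6.74 and with estradiol 6.61, 6.74 and 6.82, a difference of -0.02 (95% interval -0.30 to 0.26). The mock arrays lay above all sufficient wild-type arrays, by 0.70 ± 0.13 in the mean (adjusted p = 0.00111).

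COR28 in shoots read 9.13, 8.50 and 8.90 with nitrogen, 8.65, 8.51 and 8.97 without it and 9.57, 9.64 and 9.74 in the overexpressor. It read 9.78, 9.64 and 9.72 with mock and 9.99, 10.00 and 9.90 with estradiol. The wild-type groups lay lowest and overlapped each other. COR28 was 0.94 ± 0.13 higher with overexpression (adjusted p = 1.85e-05) and 0.87 ± 0.13 higher in the mock-treated line than in sufficient wild type (adjusted p = 0.000143). Estradiol gave 0.25 ± 0.13 with no call (adjusted p = 0.119), although the groups did not overlap. With only these 2 groups in the limma fit, the difference was called (adjusted p = 0.00576). Starvation gave -0.14 with no call, and -0.31 with a call without sufficient replicate 2. In roots COR28 had the largest starvation response of the 9 genes in that tissue. It read 8.45, 8.44 and 8.48 with nitrogen, 6.99, 7.18 and 7.17 without it and 7.96, 8.00 and 7.84 in the starved overexpressor. The last group lay between the other two. COR28 fell by 1.35 ± 0.09 with starvation (adjusted p = 3.19e-11) and rose by 0.82 ± 0.09 with overexpression (adjusted p = 1.62e-07). Mock arrays read 8.28, 8.50 and 8.70 and estradiol arrays 8.59, 8.65 and 8.52, which overlap each other.

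**Figure D3:**
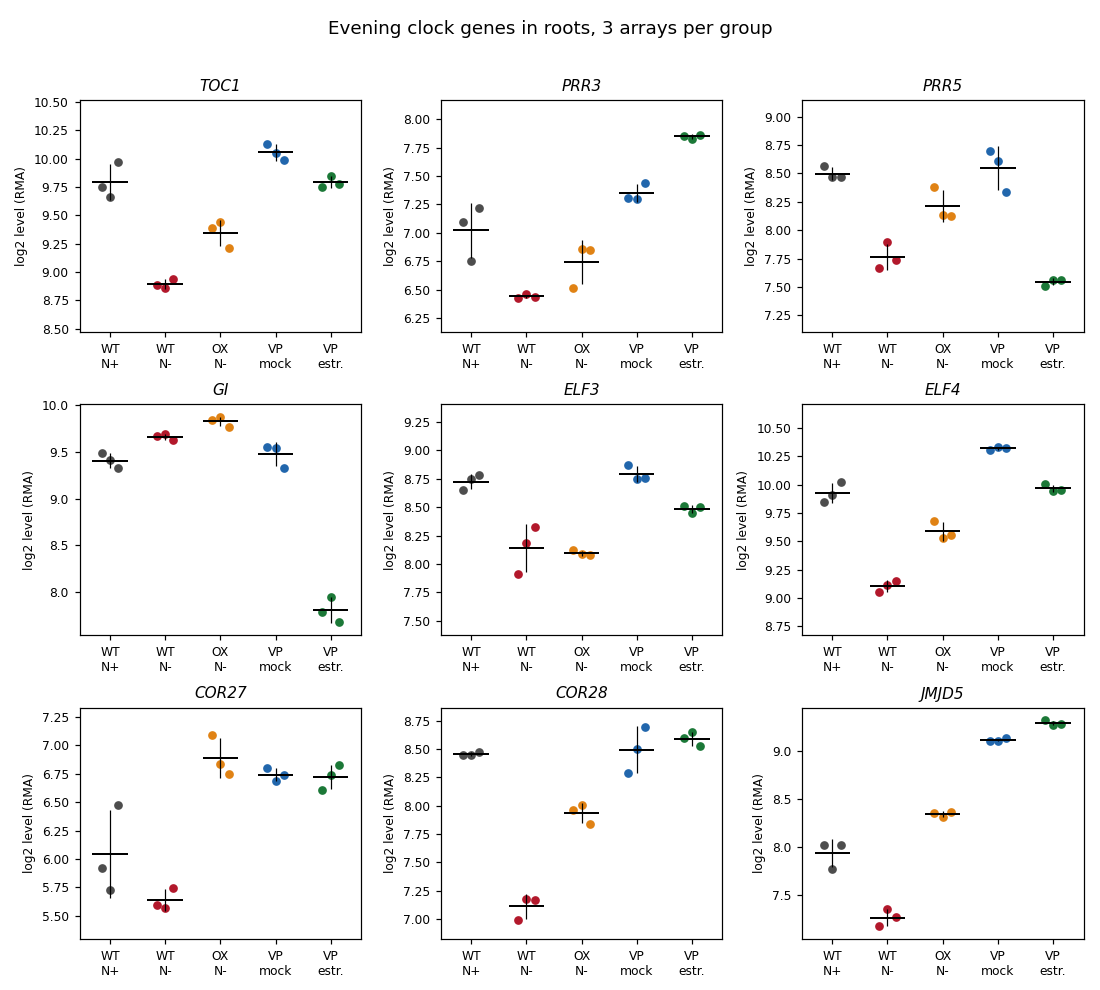
Log2 level (y axis) of the 9 measured evening clock genes in each root array, by group (x axis: wild type with and without nitrogen, starved overexpressor, VP line with mock and with estradiol); points are arrays, horizontal lines the mean and vertical lines 1 SD of 3 arrays. GI with estradiol lies near 7.8, below all its other arrays, and COR28 and TOC1 are lowest in starved wild type.

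JMJD5, a jumonji-domain protein expressed in the evening that acts with TOC1 in the clock, spanned the widest range of the 9 genes, 3.35 between the highest and lowest shoot means. Wild-type shoots read 6.49, 6.32 and 6.02 with nitrogen and 6.80, 6.47 and 6.89 without it. The overexpressor read 9.36, 9.75 and 9.78. The VP line read 8.97, 8.77 and 8.84 with mock and 9.29, 9.37 and 9.65 with estradiol. All 9 arrays of the transgenic lines lay above all 6 of wild type. JMJD5 was 2.91 ± 0.14 higher with overexpression (adjusted p = 1.73e-10), 2.58 ± 0.14 higher in the mock-treated line than in sufficient wild type (adjusted p = 1e-08) and a further 0.58 ± 0.14 higher with estradiol (adjusted p = 0.00351). Starvation gave 0.44 ± 0.14 (adjusted p = 0.0155) with overlapping groups. That call was lost without starved replicate 1 (adjusted p = 0.0511) or 3 (adjusted p = 0.0705), or without sufficient replicate 3 (adjusted p = 0.0960).

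In roots no 2 neighbouring groups of JMJD5 overlapped. It read 8.02, 7.77 and 8.03 with nitrogen, 7.17, 7.35 and 7.27 without it and 8.36, 8.31 and 8.36 in the overexpressor. With mock it read 9.11, 9.11 and 9.13 and with estradiol 9.32, 9.27 and 9.29. The VP line was highest whether or not estradiol was given. JMJD5 fell by 0.68 ± 0.07 with starvation (adjusted p = 6.26e-08) and rose by 1.08 ± 0.07 with overexpression (adjusted p = 8.05e-11). It was 1.18 ± 0.07 higher in the mock-treated line (adjusted p = 4.93e-10) and 0.18 ± 0.07 higher with estradiol (adjusted p = 0.0476), the last a call lost without any 1 of the 6 arrays (adjusted p from 0.0811 to 0.125).

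Opposite responses to the overexpressor and to AtNIGT1.2-VP were looked for, since the 2 comparisons share no arrays. Genes lower with overexpression and higher with estradiol were 0 of the 9 in shoots, where 4.17% of all tested probe sets met both, and 0 of the 9 in roots, where 5.09% did; unadjusted p-values under 0.05 in limma gave 0 in both as well. The reverse, higher with overexpression and lower with estradiol, held for ELF4 in shoots (5.31% of probe sets) and for TOC1, PRR5 and ELF4 in roots (7.85%). Genes higher both with overexpression and in the mock-treated line were 6 of 9 in shoots, against 7.22% of probe sets, and 5 of 9 in roots, against 4.16%. The 6 in shoots were TOC1, PRR3, ELF4, COR27, COR28 and JMJD5, and the 5 in roots the same without COR28. Starvation and overexpression share the starved wild-type arrays, and starvation and the mock comparison share the sufficient ones, so their values stand side by side here and were not correlated.

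The morning and midday clock genes, which include the repressors of the evening set, were called lower more often than higher in each comparison. Of 16 listed, 13 were tested in shoots and 10 in roots. In shoots, 30.6% of all probe sets were called higher and 20.7% lower with overexpression, and 17.7% and 15.8% in the mock-treated line. With starvation the shoot shares were 27.8% and 26.3%, and with estradiol 23.8% and 25.5%. The root shares in that order were 21.4% and 16.7%, 12.1% and 6.10%, 33.1% and 21.8%, and 15.6% and 28.3%. With overexpression 10 of 13 were lower and 1 higher in shoots, with a median of -1.19, and 6 of 10 were lower and 0 higher in roots, with a median of -0.58. CCA1 differed by -2.86 ± 0.15 in overexpressor shoots (adjusted p = 2.67e-10), RVE7, a related MYB factor, by -2.56 ± 0.13 (adjusted p = 1.52e-10), and the coactivators LNK3 and LNK1 by -2.26 and -1.53. In the mock-treated line CCA1 differed by -2.00 ± 0.15 (adjusted p = 1.83e-07), LNK3 by -1.34 and LNK2 by -1.08 in shoots, while RVE2, another MYB factor, was 2.49 ± 0.19 higher (adjusted p = 3.68e-07). That comparison had 8 lower and 1 higher of 13 in shoots and 7 lower and 1 higher of 10 in roots, with medians of -0.37 and -0.45. CCA1 lay under the filter in roots, and LHY there differed by -0.86 ± 0.09 with overexpression (adjusted p = 1.23e-07). With starvation, LHY was 1.04 ± 0.09 higher in roots (adjusted p = 3.14e-09), where 3 of 10 were higher and 5 lower. Among the lower ones RVE2 differed by -1.20 ± 0.11 (adjusted p = 4.4e-09) and RVE4, also a MYB factor, by -0.71 ± 0.06 (adjusted p = 1.19e-09). In starved shoots 4 of 13 were higher and 6 lower, RVE1 by -1.07 and RVE7 by -0.94 among the latter. CCA1, named there after its value was seen, was 0.55 ± 0.15 higher (adjusted p = 0.00446). LHY differed by -0.03 there with no call (adjusted p = 0.845). With estradiol 7 of 13 were lower and 0 higher in shoots, 8 and 0 at an unadjusted p under 0.05, and 6 of 10 lower and 1, LNK2 at 1.78 ± 0.10, higher in roots (adjusted p = 1.76e-12).

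**Figure D4:**
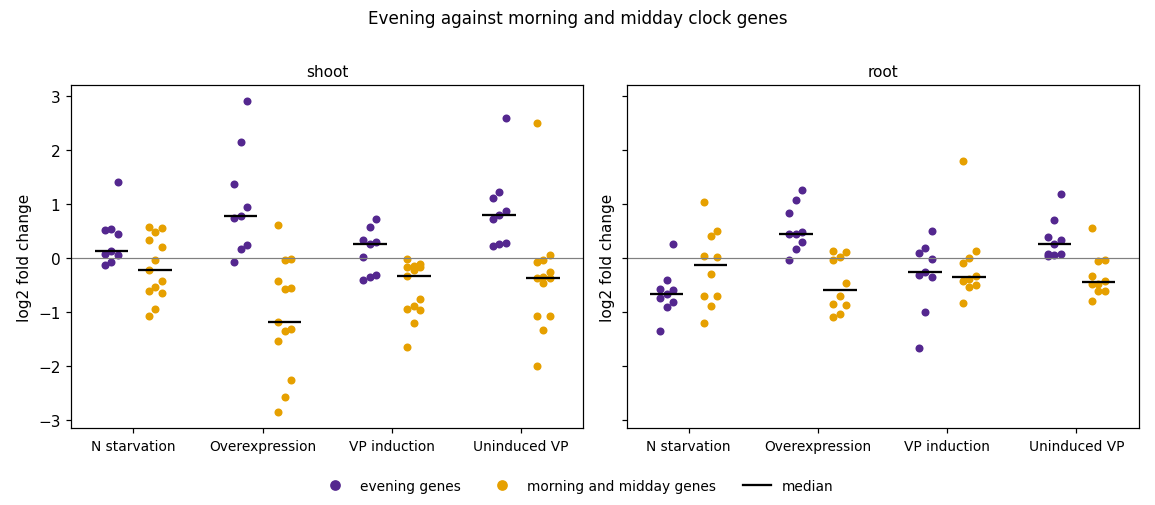
Log2 fold change (y axis) of the 9 evening genes (purple) and the tested morning and midday clock genes (orange), 13 in shoots and 10 in roots, in each comparison (x axis); points are genes and black lines medians. In the overexpressor the medians are 0.78 and -1.19 in shoots and 0.45 and -0.58 in roots.

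Partners and paralogs of the evening genes were a smaller and mixed group, with 8 of 12 listed tested in each tissue. TIC, a regulator of the clock, was called higher with overexpression in both tissues, with 0.52 ± 0.09 in shoots (adjusted p = 0.000239) and 0.28 ± 0.07 in roots (adjusted p = 0.00162). It was also called higher in starved shoots (0.69), estradiol shoots (0.57) and mock-treated roots (0.42), and was not called elsewhere. With overexpression the ELF4 paralogs EFL2 and EFL4 went the other way from ELF4. They differed by -0.81 and -0.60 in shoots and by -0.82 and -0.57 in roots, all called lower. With estradiol in roots, EFL4 was 1.11 ± 0.09 higher (adjusted p = 1.81e-09) and EFL2 1.06 ± 0.11 higher (adjusted p = 4.6e-08), while ELF4 fell. ZTL, the F-box partner of GI, differed by -0.33 in overexpressor shoots and by -0.30 in estradiol roots, both called lower, and by 0.28 in starved shoots, called higher. CHE, a TCP factor that represses CCA1, was called lower in starved shoots (-0.85) and estradiol roots (-0.87) and higher in starved roots (0.30). Counts of higher and lower with overexpression were 1 and 3 in shoots and 1 and 2 in roots, and with estradiol 2 and 0 in shoots and 2 and 2 in roots. With starvation they were 2 and 2 in shoots and 1 and 1 in roots, and in the mock-treated line 0 and 1 in shoots and 1 and 0 in roots. Over all probe sets 51.3% (shoots) and 38.1% (roots) were called in either direction with overexpression, and 49.3% and 43.9% with estradiol. With starvation these shares were 54.1% and 54.8%, and in the mock-treated line 33.4% and 18.2%. The counts of the 8 genes lay near or below these shares.

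Of the photoperiod and rhythmic output genes, 8 of 9 were tested in shoots and 6 in roots. With overexpression 1 was higher and 4 lower in shoots, and 1 higher and 3 lower in roots. CDF3, a DOF factor of the family that GI and FKF1 remove, differed by -1.20 ± 0.13 in overexpressor shoots (adjusted p = 2.01e-06) and by -1.19 ± 0.13 with estradiol in shoots (adjusted p = 3.01e-06). With starvation CDF3 was instead higher, by 0.89 ± 0.13 in shoots (adjusted p = 3.25e-05) and 0.42 ± 0.14 in roots (adjusted p = 0.0134). GRP7, an RNA-binding protein with an evening peak, was 0.60 ± 0.07 higher in overexpressor shoots (adjusted p = 2.55e-06) and 0.20 ± 0.03 higher in roots (adjusted p = 9.44e-05). With starvation 4 were higher and 0 lower in shoots and 1 higher and 2 lower in roots, and with estradiol 1 was higher and 3 lower in shoots and 1 higher and 1 lower in roots. In the mock-treated line 1 was higher and 2 lower in shoots and 0 higher and 2 lower in roots. The shares of all probe sets called in either direction were 51.3% (shoots) and 38.1% (roots) with overexpression and 54.1% and 54.8% with starvation. They were 49.3% and 43.9% with estradiol, and 33.4% and 18.2% in the mock-treated line.

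Cold output genes were listed because COR27 and COR28 respond to cold, and 7 of 9 were tested in shoots and 2 in roots. All 7 were higher in starved shoots, in which COR27 and COR28 were not called. With overexpression 4 were higher and 2 lower in shoots. Among them COR15A, a chloroplast protein of freezing tolerance, differed by 3.38 ± 0.44 (adjusted p = 1.05e-05), and CBF1, an activator of the cold response, by -1.35 ± 0.15 (adjusted p = 1.97e-06). In the mock-treated line 0 were higher and 2 lower in shoots, with COR15A spread from 6.25 to 8.70 over the sufficient wild-type arrays. With estradiol 1 was higher and 0 lower in shoots. Of all shoot probe sets, 54.1% were called in either direction with starvation, 51.3% with overexpression, 33.4% in the mock-treated line and 49.3% with estradiol. The root shares were 54.8% with starvation, 38.1% with overexpression and 43.9% with estradiol. In roots both tested genes, COR47 and RD29A, dehydration-linked proteins, were called lower with estradiol, with differences of -1.18 ± 0.05 (adjusted p = 7.2e-14) and -1.44 ± 0.15 (adjusted p = 1.04e-07), and both were lower with starvation and higher with overexpression.

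The genes outside the set whose levels over the 15 arrays of a tissue were most like those of each evening gene were ranked by Pearson's r, among 15098 genes in shoots and 15086 in roots. These arrays share 5 groups, so the values describe these arrays and carry no p. In shoots COL9, a CONSTANS-like B-box protein, was among the 3 closest genes for 4 of the 9, with r of 0.983 to COR27, 0.978 to JMJD5, 0.958 to TOC1 and 0.958 to COR28. ELF4 in shoots was closest to ZFP7, a zinc finger protein, at 0.982. PRR5, the least variable gene in shoots, had no gene closer than 0.822. In roots GI was closest to ERD10, a dehydrin, at 0.991, and ELF4 and TOC1 were both closest to AT5G57480, at 0.987 and 0.979. COR27 in roots had BBX8, a B-box protein, second at 0.902. The mean of the 9 was most like AT4G33480 in shoots, at 0.956, and RIBA2 in roots, at 0.987.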

How the data were processed

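Transcript levels were measured on 30 Affymetrix arrays, 15 per tissue, in 10 groups of 3, grouped and numbered by the samples' titles. The authors deposited RMA log2 levels, per the file headers, although MAS5 is the tool in the submitters' processing notes; no version is stated. Values and array medians were on a log2 scale and were used as deposited. The deposited tables also hold the authors' own p-values and q-values and their Benjamini-Hochberg adjustment, used only for comparison. Probe sets were named by the locus column, with symbols from a RefSeq table of assembly TAIR10.1. Limma 3.58.1 in R 4.3.3 was fitted per tissue to all 15 arrays with a mean per group and an intensity trend, on the 15922 of 22746 probe sets at or above the 30th percentile of mean level. Tests were two-sided, and an exact permutation test of 3 against 3 could not go below 0.10. The fit was tested on simulated data. The evening genes and the 4 other gene lists were chosen with earlier results of these data known, so the p-values describe single genes against the spread between arrays. The 9 measured evening genes are described in each comparison; of the other lists, up to 4 genes with the smallest adjusted p in a comparison; for likeness, genes among the 3 with the highest r to a member or the 5 with the highest r to their mean. The number of arrays limits the precision. Alternatives are given at the end. A planned search of promoters for motifs was not run.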

Additional observations from a re-analysis of the deposited data

Results flagged for a closer look

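Some evening genes were called in opposite directions in the 2 tissues, with arrays that did not overlap in either. How many of all probe sets did the same was not counted. In either direction, 54.1% (shoots) and 54.8% (roots) of all probe sets were called with starvation, and 49.3% and 43.9% with estradiol. With nitrogen starvation PRR3 differed by 0.54 ± 0.14 in shoots and by -0.58 ± 0.11 in roots, and ELF4 by 1.41 ± 0.15 in shoots and by -0.82 ± 0.06 in roots. With AtNIGT1.2-VP induction TOC1 differed by 0.33 ± 0.11 in shoots and by -0.26 ± 0.07 in roots, and ELF3 by 0.30 ± 0.09 in shoots and by -0.31 ± 0.08 in roots. By the authors' deposited Benjamini-Hochberg values only ELF4 passed 0.05 in both tissues (0.0478 in shoots and 0.0185 in roots). The authors' deposited table has 0.147 and 0.150 for PRR3, 0.0655 and 0.0550 for TOC1, and 0.0920 and 0.0443 for ELF3. The difference between tissues was not tested, because the tissues were deposited as separate tables.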

How the results depend on the processing

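Of 1130 single-gene values recomputed under other settings, 1025 kept their direction and side of the threshold, 71 lost the call, 10 gained it and 24, none of them called at the reported setting, changed sign. With arrays centred on their medians the sign turned for TOC1 in starved shoots (-0.015), PRR3 with estradiol in shoots (-0.029), COR27 with estradiol in roots (0.029) and, in mock-treated roots, PRR5 (-0.019), ELF3 (-0.0019) and COR28 (-0.031). With quantile normalization it turned for PRR3 with estradiol in shoots (-0.015), COR27 with estradiol in roots (0.015) and COR28 in mock-treated roots (-0.0084). Leaving out 1 array gave ranges that crossed 0 in starved shoots for TOC1 (-0.093 to 0.21), PRR5 (-0.029 to 0.21), COR27 (-0.28 to 0.099) and COR28 (-0.31 to 0.0078), with estradiol for PRR3 in shoots (-0.076 to 0.12) and for COR27 (-0.066 to 0.041) and COR28 (-0.012 to 0.19) in roots, for ELF3 in overexpressor roots (-0.16 to 0.047), and in mock-treated roots for PRR5 (-0.028 to 0.16) and COR28 (-0.065 to 0.14). The cause was not tested.

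The authors' deposited Benjamini-Hochberg values called fewer, and their deposited q-values called as many as those or more. At q under 0.05 the authors' deposited table has 1 evening gene in either direction in starved shoots, 6 in overexpressor shoots, 6 with estradiol in shoots, 8 in starved roots, 4 in overexpressor roots and 7 with estradiol in roots. The share of all probe sets at that q was not counted, so these counts have no background beside them. The Benjamini-Hochberg counts follow. In starved shoots they called 1 evening gene higher and 2741 probe sets, against 8615 here. In overexpressor shoots they called 4 higher and 2058 probe sets, against 8163. With estradiol in shoots they called 1 higher, 0 lower and 2661 probe sets, against 7848. In starved roots they called 0 higher, 4 lower and 2322 probe sets, against 8731. In overexpressor roots they called 4 higher and 946 probe sets, against 6070. With estradiol in roots they called PRR3 and JMJD5 higher, 3 lower and 3203 probe sets, against 6987. The mock-treated roots had 3 evening genes called higher with median centring, and 1847 probe sets called when only those groups entered the fit, against 2893, a fit with fewer arrays. With estradiol in roots 1 evening gene was called higher with no filter.

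Without 1 array, the evening genes called higher and lower numbered 3 to 5 and 0 to 2 in starved shoots, 6 to 7 and 0 in overexpressor shoots, 3 to 4 and 0 to 2 with estradiol in shoots, and 6 to 9 and 0 in mock-treated shoots. In roots they numbered 1 and 7 to 8 with starvation, 6 to 7 and 0 with overexpression, 1 and 5 with estradiol, and 3 to 5 and 0 in the mock-treated line. Probe sets called in mock-treated roots ran from 1612, without mock replicate 1, to 3086.

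With the replicate number as a block, 1 evening gene was called higher with estradiol in roots, since JMJD5 lost its call (adjusted p = 0.0556). ELF3 in overexpressor shoots also lost its call under the block (adjusted p = 0.0654), while PRR5 in mock-treated shoots (adjusted p = 0.0396) and GI in overexpressor roots (adjusted p = 0.0326) gained one. The samples share only a number. With group means subtracted, correlations of same-numbered arrays over the tested probe sets ran from -0.455 to 0.179. No comparison had all of its pairs above 0.1. Each measured evening gene has 1 probe set, so the lowest-mean probe set could not be tried, and the series matrix held the same values.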
